A study of Homo sapiens with 18 samples.

Results

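SP5 ChIP-Seq peaks in human embryonic stem cells were deposited as 2 lists of 542 and 540 peaks. The regions described here are the 274 peaks with the same chromosome, start and end in both lists, out of 808 distinct regions found in either. They make up 50.6% of the first list and 50.7% of the second. The members were chosen by these measured peak calls, so their tags, fold enrichments and false discovery rates are given as a description and carry no test.

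Both headers name a single ChIP library, made with SP5 antibody from cells given Wnt3a, and the lists differ in the control library alone. The first list was made against a control from buffer-treated cells and belongs to the sample labelled as untreated, and the second was made against a control from Wnt3a-treated cells and belongs to the sample labelled as 24 h of Wnt3a. The lists are therefore called by their controls below, and a shared peak is 1 set of ChIP tags called against 2 backgrounds, not a peak found in 2 experiments. No untreated SP5 pulldown was analysed here, and binding with and without Wnt3a was not compared. The library name carries h9, whereas the samples are labelled as the H1 line, an established human embryonic stem cell line.

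RNA-Seq libraries come from H1 cells at 0, 12, 24 and 48 h of 1 nM recombinant Wnt3a. A first wild-type (WT) series has 1 library at each time, and so have a later WT series (WT Rep. 2) and the clones dZF1 and dZF2. In each clone the sequence encoding the DNA-binding zinc fingers of SP5 was deleted with CRISPR-Cas9, and each is a single expanded clone of H1. With 1 library for each series and time, no test was run on the RNA values below. Both WT series can be set side by side only for genes in both tables, which were scaled separately. Pluripotency markers were high in the first series (POU5F1 294.6 RPKM, LIN28A 1014.1 RPKM at 0 h), NANOG stood at 3.3 RPKM, and the neural markers PAX6 and SOX1 are not listed. RPKM scales reads to transcript length and library size, and fewer expressing cells cannot be told apart from less RNA per cell in such bulk samples.

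SP5 belongs to the SP/KLF family, whose members bind GC-rich DNA through adjoining zinc fingers. The family's classic target is the GC box, with the core letters GGGCGG. SP5 itself is a target gene of WNT/β-catenin signalling, in which β-catenin joins TCF/LEF factors on DNA, and WNT signalling drives pluripotent cells towards primitive streak, mesoderm and endoderm.

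The sequences around 11 summits show the kinds of site among the shared peaks, from peaks with high tag counts and from peaks near WNT or mesendoderm genes. A summit is the position of the highest tag pile-up in a peak. Each line gives the nearest gene, then 81 bases centred on the summit in hg19 (GRCh37), read 5′ to 3′ on the plus strand. Capitals mark GGGCGG, the shifted letters of GGCGGG and the A-containing variant GGGAGG on either strand, and neighbouring matches may overlap.
SP5, chr2:171571566-171571646: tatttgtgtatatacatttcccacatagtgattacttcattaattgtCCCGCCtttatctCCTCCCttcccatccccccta
MIXL1, chr1:226411127-226411207: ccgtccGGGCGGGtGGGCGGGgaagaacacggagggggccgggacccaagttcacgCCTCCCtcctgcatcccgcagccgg
TMEM132E, chr17:32925521-32925601: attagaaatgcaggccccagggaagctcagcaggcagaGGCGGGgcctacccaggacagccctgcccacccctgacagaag
PIEZO1, chr16:88837371-88837451: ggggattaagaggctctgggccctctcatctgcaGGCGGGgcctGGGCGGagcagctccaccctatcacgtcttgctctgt
SP8, chr7:20837951-20838031: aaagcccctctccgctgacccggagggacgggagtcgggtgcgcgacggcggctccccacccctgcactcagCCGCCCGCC
AXIN2, chr17:63556515-63556595: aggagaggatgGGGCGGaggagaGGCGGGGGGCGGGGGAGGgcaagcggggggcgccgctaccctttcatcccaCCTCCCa
NKD1, chr16:50581920-50582000: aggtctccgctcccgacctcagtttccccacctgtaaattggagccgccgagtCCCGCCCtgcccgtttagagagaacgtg
HES3, chr1:6305886-6305966: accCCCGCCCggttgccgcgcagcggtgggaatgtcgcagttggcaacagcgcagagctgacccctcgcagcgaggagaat
MSX2, chr5:173947498-173947578: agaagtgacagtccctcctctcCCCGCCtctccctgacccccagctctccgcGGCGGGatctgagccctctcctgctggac
GATA6, chr18:19570961-19571041: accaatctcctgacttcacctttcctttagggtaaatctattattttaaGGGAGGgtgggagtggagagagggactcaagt
LHX1, chr17:35204723-35204803: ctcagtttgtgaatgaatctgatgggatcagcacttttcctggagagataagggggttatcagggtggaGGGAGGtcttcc

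The SP5, MIXL1 and NKD1 sequences lie upstream of the start sites of these genes. Those of PIEZO1, TMEM132E and AXIN2 lie in introns, that of HES3 lies past the end of its gene, and the others are intergenic in the annotation of protein-coding genes. The SP5 summit has no GGGCGG within 100 bases, but it has the shifted form GGCGGG next to a GGGAGG. The summit with the highest fold enrichment against either control, in an intron of TMEM132E, likewise has GGCGGG and no GGGCGG. The AXIN2 summit lies in a run of overlapping GC-box letters, whereas the GATA6 and LHX1 summits have GGGAGG alone.

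GC-box letters were common at the shared summits. Within 100 bases to either side, 124 of 274 summits (45.3%, 95% Wilson interval 39.5 to 51.2) had GGGCGG on either strand, against 7.12% of 548 flanking windows of the same width centred 2000 bases away. GGGAGG was in 159 windows (58.0%) against 31.4% of the flanks, and GGGTGG in 97 (35.4%) against 18.8%. CACCC, a core letter run of KLF sites that is also part of GGGTGG read on the other strand, was in 152 windows (55.5%) against 39.1%. At least 1 of GGGCGG and GGGAGG was present in 191 windows (69.7%), and in 34.9% of the flanks. Regions called against 1 control alone had GGGCGG in 38.9% (33.2 to 44.9) for the Wnt3a-treated list and 24.9% (20.1 to 30.4) for the buffer-treated list. GGGAGG was in 43.4% and 40.8% of these regions. The intervals cover counting error only.

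Base composition moved with these counts. The median GC content was 57.2% at the shared summits, 46.8% in the flanks and 63.2% around the start sites of all 20163 protein-coding genes, where 46.7% of windows had GGGCGG and 43.4% had GGGAGG. The part of GC content in the motif counts was not tested. GGCGGG, searched after the summit sequences had been seen, was in 123 shared windows (44.9%), in 10.9% of the flanks and in 46.9% of the start sites, and it overlaps GGGCGG wherever GGGCGGG occurs. In 20 shared windows (7.30%) it occurred without any GGGCGG, against 5.84% of the flanks.

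The letters bound by TCF/LEF factors were less frequent, and their forms differed. CTTTGAT was in 15 shared windows (5.47%, 3.35 to 8.83) against 1.82% of the flanks (0.994 to 3.33) and 1.21% of all start sites. CTTTGAA was in 18 windows (6.57%, 4.20 to 10.1) against 6.39% and 2.08%. At least 1 of them was in 30 shared windows (10.9%) against 8.21% of the flanks and 3.25% of all start sites. In regions called against 1 control alone, CTTTGAT was in 4.53% for the Wnt3a-treated list and 2.64% for the buffer-treated list. At least 1 of the 2 forms was in 6.79% and 7.92% of these regions.

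**Figure D1:**
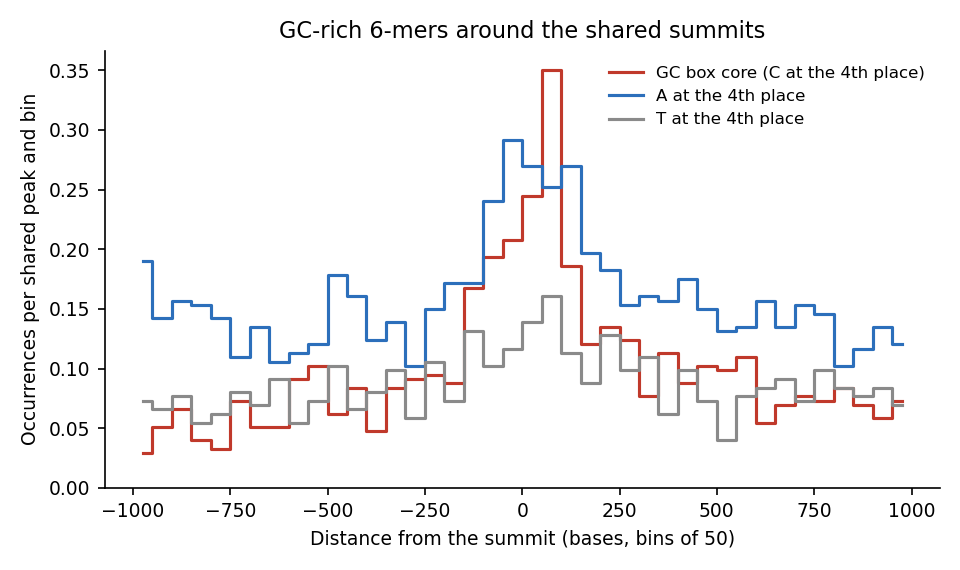
Occurrences of the 6-mers GGGCGG (red), GGGAGG (blue) and GGGTGG (grey) on either strand per shared peak, in bins of 50 bases by distance from the summit along the plus strand. The highest bin of each 6-mer lies within 100 bases of the summit, where GGGCGG reaches 0.350 per peak 50 to 100 bases to the right and GGGAGG 0.292 per peak just to the left.

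The GGGCGG nearest to the summit was a median of 33 bases away in the 124 peaks that had it, and GGGAGG a median of 33.5 bases away in its 159 peaks. The density of GGGCGG was not symmetric. There were 96 occurrences at 50 to 100 bases on the side of rising coordinates and 53 at the same distance on the other side, as the profile around the summit shows. Clusters of sites were frequent, with 3 or more GGGCGG or GGGAGG in 92 windows (33.6%) against 3.47% of the flanks and 25.1% of all start sites. For regions called against 1 control alone, the share was 25.7% in the Wnt3a-treated list and 14.0% in the buffer-treated list. The most GGGCGG in 1 shared window, 7, were 344 bases inside HSD11B2, which encodes the enzyme that inactivates cortisol.

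Shared summits were found at gene starts and far from them. A total of 72 (26.3%, 21.4 to 31.8) lay within 2000 bases of the start site of a protein-coding gene, taking 1 start for each gene. Of the others 11 lay in exons, 95 in introns and 96 between genes, and 86 summits (31.4%) were beyond 50000 bases from any such start. Of the regions called against 1 control alone, 17.5% (13.5 to 22.5) of the 268 in the buffer-treated list and 27.4% of the 266 in the Wnt3a-treated list lay within 2000 bases of a start. Among the 72 the median distance was 239.5 bases, and 38 summits lay at or downstream of the start.

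Peaks at gene starts carried more ChIP tags and more GC boxes than the others. They had a median of 42.5 tags, against 27.5 for the 202 elsewhere. Their median fold enrichment against the Wnt3a-treated control was not higher, at 7.3 against 7.305 elsewhere. GGGCGG or GGGAGG was present in 97.2% of them and in 59.9% of the others, and GGGCGG alone in 86.1% and 30.7%. The GC content was 70.1% at the starts and 51.2% elsewhere. The start-site peaks with neither 6-mer were those of CCKBR and FGF11, with 26 and 52 tags.

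Motif content and tag count moved together. The 92 peaks with both GGGCGG and GGGAGG had a median of 44 tags, the 32 with GGGCGG only 40.5, the 67 with GGGAGG only 30, and the 83 with neither 18. Fold enrichment did not show this order. Its median against the Wnt3a-treated control was 7.95, 6.72, 7.42 and 7.24 in the same classes. The GC content had the same order as the tags, with medians of 69.4%, 61.9%, 52.7% and 42.8%, and its part was not tested.

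**Figure D2:**
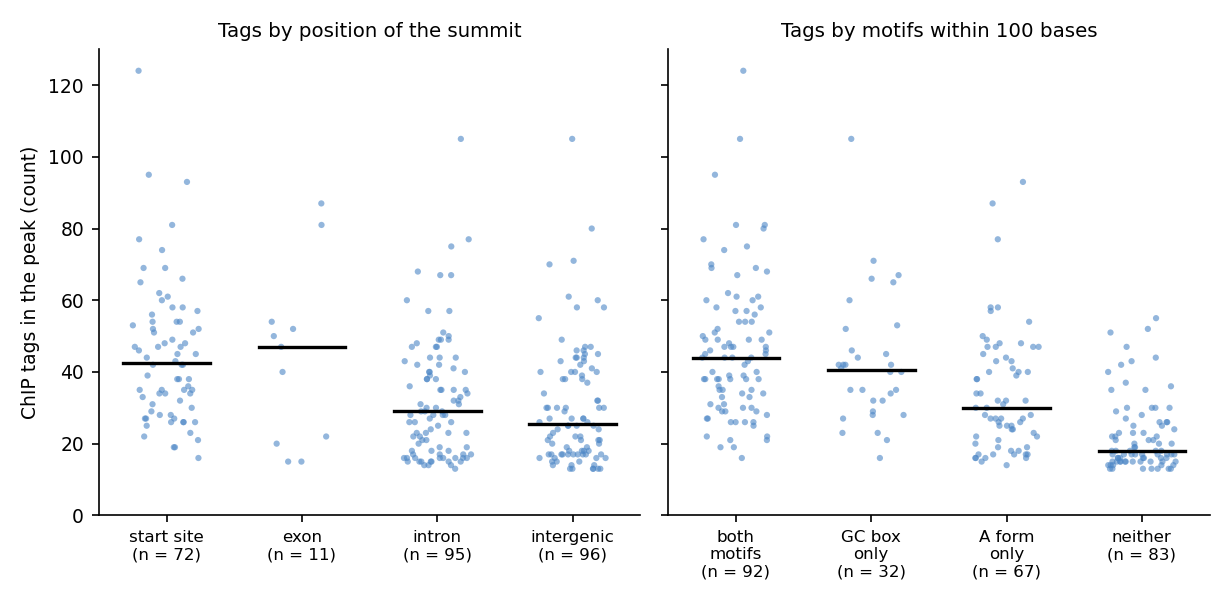
ChIP tags in each of the 274 shared peaks (points) and the median of each class (black bars), by position of the summit (left) and by presence of GGGCGG (GC box) and GGGAGG (A form) within 100 bases of it (right). Start-site peaks have a median of 42.5 tags, and peaks with neither 6-mer have a median of 18.

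The shared peaks held few tags each. The ChIP library had 18641194 tags, and the controls had 19031237 (buffer-treated) and 20618344 (Wnt3a-treated). The 274 peaks together held 9738 tags, or 0.0522% of the filtered library, with a median of 31 tags (range 13 to 124) and a median length of 895.5 bases. Peaks called against 1 control alone had medians of 19 tags (buffer-treated) and 22 tags (Wnt3a-treated). All sampled 31-base words within 50 bases of the summit occurred once in the genome for 266 of 274 peaks. The exceptions included the peaks nearest to DIRAS2, with 6 of 8 words unique and up to 19 copies, and SAMHD1, with 5 of 8 unique.

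Enrichment over the controls was moderate for most members. The median fold enrichment was 7.57 against the buffer-treated control (range 3.60 to 46.4) and 7.31 against the Wnt3a-treated control (3.57 to 32.2). The caller's false discovery rate (FDR), the share of calls expected when ChIP and control are exchanged, had a median of 60.7% in the buffer-treated list and 29.2% in the Wnt3a-treated list. It was at most 5% for 34 peaks in the first list, 47 in the second and 25 in both, and above 5% in both for 218. Among the 218 were the peaks nearest to AXIN2, NKD1, GATA6, FLRT3, CCKBR, CNTNAP2, HES1 and PLK4, which are described below. The score, which is higher for a smaller p-value, must reach 50 for a peak to be listed. Just inside that limit, 26 members scored below 51 against at least 1 control, the lowest being 50.01 at VENTX and 50.05 at TBC1D30. A region just outside it against the second control has no score there, and the regions in the buffer-treated list alone had a median score of 55.3, against 65.8 for shared peaks.

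The control changed the enrichment of some members. The fold differed by more than 1.5 times between controls in 29 of 274 peaks, 11 of them higher against the Wnt3a-treated control and 18 higher against the buffer-treated one. At RIPOR1, in an intron, it was 9.48 against the buffer-treated and 21.6 against the Wnt3a-treated control. At a peak in an intron of AUTS2, assigned to GALNT17 450442 bases away, it was 20.3 and 6.73. In 29 peaks the values were equal. One ChIP library underlies both values, so the difference is one of controls.

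**Figure D3:**
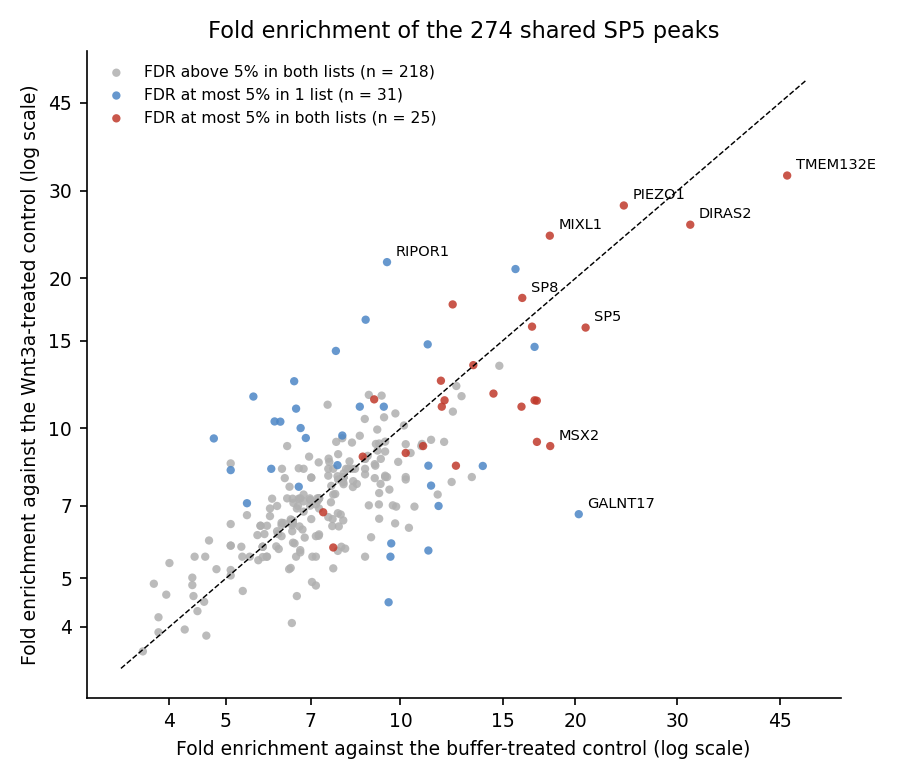
Fold enrichment of each shared peak against the buffer-treated control (horizontal) and the Wnt3a-treated control (vertical), both on log axes, with the line of equality dashed and colours for the false discovery rate. TMEM132E (46.4 and 32.2) is highest on both axes, and RIPOR1 and GALNT17 lie far from the line on opposite sides.

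The peak with the most tags, 124, lay at AHCY (chr20:32898910-32900966), 311 bases inside the gene for the hydrolase that clears S-adenosylhomocysteine after methylation reactions. Its fold enrichment was only 7.72 and 7.39. An intergenic peak 209081 bases from DIRAS2 and an intronic peak of PIEZO1, a mechanosensitive ion channel, held 105 tags each with folds of 31.6 and 24.3 against the buffer-treated control. Neither gene is listed in the RPKM table. EEF1A1, a translation elongation factor, had 87 tags but folds of only 3.95 and 4.64. High tag counts thus included peaks with low fold.

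IGF2BP1, an RNA-binding protein of embryonic cells, had peaks of 81 tags at its start and 75 tags 16035 bases inside. LIN28A, which blocks let-7 maturation, had 28 tags at its start and 49 tags in an intron 8336 bases inside. Of the 274 peaks, 12 formed 6 pairs within 50000 bases of each other, at LIN28A, MDK, LHX1, IGF2BP1, TLE6 and the DLX1 and DLX2 locus. IGF2BP1 ran at 95.5, 83.0, 80.4 and 90.1 RPKM over 0, 12, 24 and 48 h, a narrow range.

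The 274 peaks had 268 distinct nearest genes, of which 162 are in the RPKM table of the first WT series and 106 are not listed. The table holds genes whose highest RPKM is at least 4, so a gene may be listed only because it became high. The nearest genes had a median of 13.3 RPKM at 0 h and 14.6 RPKM at 48 h, against 14.7 and 15.1 RPKM for all 10975 listed genes. The nearest start is a naming rule, and no value here ties a peak to a gene's RNA.

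Changes were counted as at least 2-fold differences from 0 h on the scale of log2(RPKM + 1), with no test. At 12 h, 6 of the 162 genes were higher, or 3.70%, where 1.22% of all listed genes were. Another 2 were lower, or 1.23% against a background of 0.72%. At 24 h, 11 were higher (6.79%, background 2.62%) and 5 lower (3.09%, background 1.35%). At 48 h, 25 were higher (15.4%, 10.7 to 21.8, background 4.86%) and 9 lower (5.56%, 2.95 to 10.2, background 2.95%). The median change at 48 h was 0.03 on the log2 scale against 0.00 for all listed genes.

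Of the 25 higher genes, 19 were below 4 RPKM at 0 h. Over all listed genes, 533 were higher at 48 h, and 214 of them were at 4 RPKM or more at 0 h. A gene below 4 RPKM at 0 h is listed only if it was higher at a later time. Among the 138 nearest genes at 4 RPKM or more at 0 h, 6 were higher at 48 h (4.35%), against 2.12% of 10076 such genes in the table. Near regions called against 1 control alone, 21 of 152 genes (13.8%, 9.22 to 20.2) were higher at 48 h for the buffer-treated list and 20 of 164 (12.2%, 8.03 to 18.1) for the Wnt3a-treated list, within the interval for shared peaks. With 5 RPKM added to each value in place of 1, 13 higher and 2 lower genes remained, the latter being HES3 and PRDM14. By distance, 8 of 53 genes were higher where the summit lay within 2000 bases of the start (15.1%), 7 of 58 up to 50000 bases (12.1%) and 10 of 51 beyond it (19.6%). All 9 lower genes had their peak within 50000 bases, as had 111 of the 162 nearest genes. Among the 17 genes whose peak had an FDR of at most 5% in both lists, 6 were higher (35.3%, 17.3 to 58.7) and 1 was lower. They were SP5, MIXL1, SP8, MSX2, TNS4 and SULF2 (higher) and HES3 (lower). Of the 6 higher genes, SULF2 alone was at 4 RPKM or more at 0 h (4.6 RPKM). The others are listed only because they became higher, so this share was largely set by the listing.

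**Figure D4:**
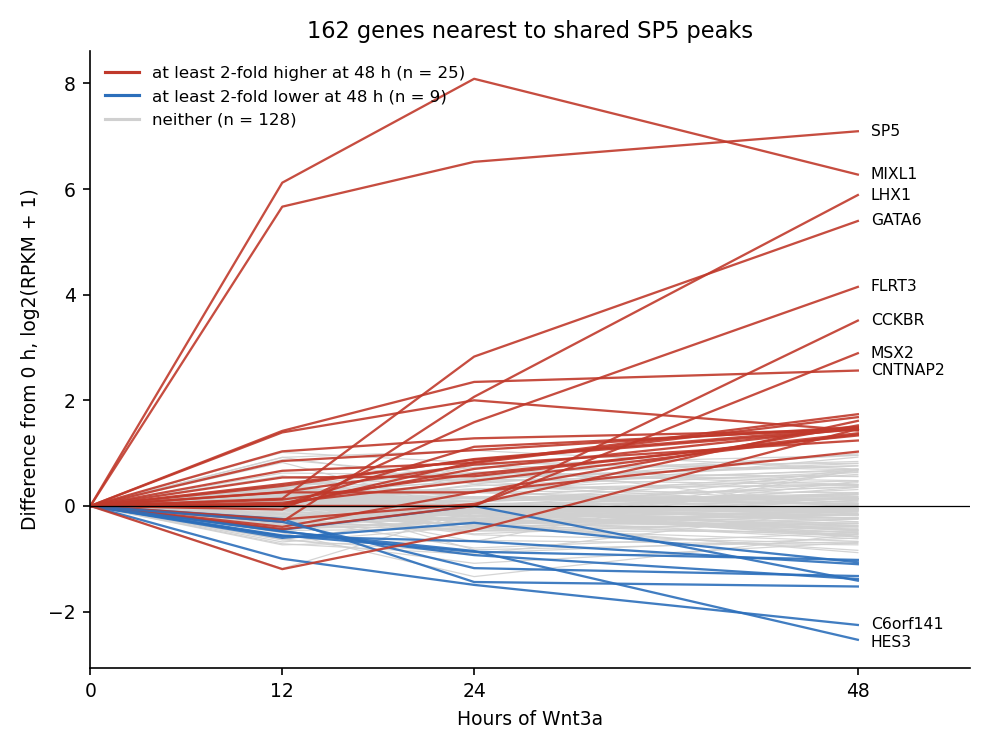
Difference of log2(RPKM + 1) from 0 h at 12, 24 and 48 h of Wnt3a in the first WT series (1 library at each time) for the 162 genes nearest to a shared peak, with 25 at least 2-fold higher at 48 h in red and 9 at least 2-fold lower in blue. MIXL1 stands highest at 24 h and SP5 at 48 h, while most genes stay near 0.

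SP5 had a shared peak just upstream of its own start. The peak, chr2:171570777-171572606, held 93 tags with folds of 20.8 (buffer-treated) and 15.9 (Wnt3a-treated), and its summit was 241 bases upstream. SP5 was listed at 0 RPKM at 0 h, then at 49.8, 90.5 and 135.7 RPKM at 12, 24 and 48 h. No fold is given against a value listed at 0.

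SP8, a family member that the paper calls highly related to SP5, had an intergenic peak of 80 tags (chr7:20836870-20838511) 11486 bases upstream. The peak had folds of 16.2 and 18.3 and 4 GGGCGG within 100 bases of the summit. SP8 RNA was at 3.2, 5.1, 5.2 and 9.9 RPKM, a log2 difference of 1.38 at 48 h, or 0.86 with 5 RPKM added. KLF12, a repressor of the same family, had 35 tags 146 bases inside its start and stayed between 5.6 and 6.6 RPKM. Of the 26 members of the SP/KLF list these 3 were nearest to a shared peak, 2 of them at least 2-fold higher at 48 h. Of the 17 list members in the RPKM table, 5 were at least 2-fold higher whether or not a peak was near. The paper instead reads its RNA-Seq as little or no change in family members other than SP5, SP8 among them. SP8 stayed below 10 RPKM.

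The genes for primitive streak and mesendoderm regulators next to shared peaks, MIXL1, LHX1 and MSX2, were all higher at 48 h. All were below 4 RPKM at 0 h and are listed only because they became higher, so this outcome was set by the listing. MIXL1, a homeobox factor of the primitive streak, had the peak with the most tags among them (chr1:226410325-226411482, 95 tags, folds 18.1 and 24.4), with the summit 152 bases upstream. It was listed at 0 RPKM at 0 h and at 68.6, 271.1 and 76.4 RPKM afterwards, so it was highest at 24 h and lower again at 48 h.

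LHX1, a LIM-homeobox factor, had a pair of peaks of 40 and 30 tags 89321 and 86945 bases upstream. Its RNA was at 0.6, 0.3, 5.7 and 93.7 RPKM, with nearly all of it at 48 h. MSX2, a homeobox gene of the BMP response, had a peak of 46 tags 204047 bases upstream with folds of 18.1 and 9.22. MSX2 was at 0.9, 0.4, 0.9 and 13.1 RPKM. These were 3 of the 22 genes in the list, and 13 of its 15 members in the RPKM table were at least 2-fold higher at 48 h whether or not a peak was near.

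GATA6, a zinc-finger factor of endoderm, was nearest to a peak of 47 tags 178549 bases upstream (chr18:19570593-19571960, folds 4.42 and 5.53). It was listed at 0 RPKM at 0 h, then at 0.1, 6.1 and 41.1 RPKM, and is listed only because it became higher. It was the only one of 12 genes in the endoderm list with a shared peak nearest to it, and all 10 listed members were at least 2-fold higher at 48 h.

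Among 59 genes in a list of the WNT pathway, which does not hold every WNT ligand, AXIN2 and NKD1 were nearest to shared peaks. Of the 45 list members in the RPKM table, 12 were at least 2-fold higher at 48 h and 1 was lower. AXIN2, a scaffold of the β-catenin destruction complex and a feedback inhibitor, had 26 tags 1211 bases inside the gene, where a second annotated gene overlaps it (chr17:63556044-63556744, folds 11.3 and 9.49, FDR 32.5% and 30.4%). Its RNA was at 15.5, 24.4, 23.8 and 22.0 RPKM, a log2 difference of 0.62 at 12 h that stayed under 2-fold. NKD1, an inhibitor that binds Dishevelled, had 21 tags 347 bases upstream (FDR 61.2% and 46.9%), and its RNA stood at 2.0, 3.0, 4.5 and 7.2 RPKM. NKD1 was therefore above 2-fold at 48 h with a log2 difference of 1.45, but not with 5 RPKM added (0.80).

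SMAD7, BMP7 and FGFR1 were the genes of the NODAL, BMP and FGF list next to shared peaks, and none passed 2-fold at 48 h, whereas 16 of the 41 list members in the RPKM table were at least 2-fold higher. SMAD7, an inhibitory SMAD, had 38 tags 9017 bases upstream and ran at 21.0, 21.2, 12.8 and 34.4 RPKM. BMP7 had 36 tags 74 bases upstream and stayed between 2.3 and 4.8 RPKM. FGFR1 had 34 tags 53138 bases upstream and stayed between 67.1 and 89.4 RPKM.

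Among the 13 pluripotency factors listed, LIN28A and PRDM14 were nearest to shared peaks. PRDM14, a repressor of differentiation genes, had 47 tags in an intron 10252 bases inside. In the first WT series it ran at 31.6, 22.4, 16.1 and 11.5 RPKM, lower at each later time (log2 -1.38 at 48 h). LIN28A ran at 1014.1, 1018.0, 934.7 and 784.7 RPKM. The neural list had OTX1 alone next to a peak, and OTX1 is not in the RPKM table. No gene of the Hippo-YAP list was nearest to a shared peak by its start. Genes that hold a peak without having the nearest start are not counted, such as AMOTL1 for the peak of 50 tags assigned to CWC15.

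Other genes with a peak were higher at 48 h without belonging to a list. FLRT3, an adhesion molecule that also takes part in FGF signalling, ran at 1.2, 1.1, 5.6 and 38.0 RPKM, with a peak of 27 tags in an intron of MACROD2 522851 bases away. CCKBR, a receptor for cholecystokinin and gastrin, stayed at 2.6 RPKM until 24 h and was at 40 RPKM at 48 h, with 26 tags 571 bases upstream. CNTNAP2, a neurexin-related membrane protein, ran at 24.1, 66.2, 126.8 and 147.4 RPKM, with only 14 tags 176117 bases upstream. HES1, a basic helix-loop-helix repressor of the Notch pathway, ran at 20.9, 21.3, 46.6 and 59.4 RPKM with 42 tags 1288 bases upstream. TNS4, RET, PRTG and MAN1A1 completed the 12 largest differences above 0 h, at 5.0, 8.3, 10.3 and 10.8 RPKM at 48 h from 0.8, 1.9, 2.7 and 3.1 RPKM.

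The lower genes were fewer. HES3, a relative of HES1, had 65 tags 1687 bases past its start (chr1:6305112-6306453, FDR 2.78% and 0%) and ran at 15.8, 11.0, 8.3 and 1.9 RPKM, lower at each time. C6orf141 went from 5.2 to 0.3 RPKM, the other nearest gene with a log2 difference beyond -2 (-2.25). HTR3A, a serotonin-gated channel, was at 8.5, 7.0, 2.5 and 2.3 RPKM, and SAMHD1, which hydrolyses deoxynucleotides, was at 12.8, 10.2, 5.1 and 4.5 RPKM. LRIG1, an inhibitor of receptor tyrosine kinases with its summit 49 bases inside the start, was at 38.6, 25.9, 20.7 and 18.5 RPKM. GLI1, the Hedgehog pathway factor, had 67 tags and ran at 6.7, 3.8, 4.9 and 3.3 RPKM. With 1 RPKM added, its log2 difference of -0.84 at 48 h was under 2-fold.

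Peaks with many tags did not always lie by a gene whose RNA differed. PLK4, the kinase of centriole duplication, had 69 tags and 4 GGGCGG at its start and ran at 19.8, 20.8, 22.2 and 20.4 RPKM. GPR37, an orphan receptor, had 47 tags 299 bases upstream. In the first WT series it ran at 10.1, 20, 22 and 17.0 RPKM, above 2-fold at 24 h alone. AHCY ran at 234.4, 237.8, 236.5 and 170.5 RPKM.

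The clones were compared with WT Rep. 2 in a table of 497 genes, which the study chose on these experiments for their response. Each value is a gene's RPKM divided by its highest RPKM in WT Rep. 2. The clones share that WT series, so their ratios to it are not independent. The table holds 26 of the 268 nearest genes. SP5 itself was at 0.02, 0.02, 0.09 and 1.00 in WT Rep. 2 over the 4 times. The clone dZF1 gave 0.01, 0.23, 0.90 and 2.54, and dZF2 gave 0.00, 0.62, 0.75 and 2.61. Its RNA was thus higher in both clones at 12, 24 and 48 h. Since the deletion removes a part of the coding sequence, this level does not check the deletion.

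SP5 and MIXL1 RNA came later in WT Rep. 2 than in the first WT series. SP5 at 24 h was 0.67 of its highest value in the first series and 0.09 in WT Rep. 2, and MIXL1 at 24 h was 1.00 and 0.08. PRDM14, SAMHD1, HTR3A and LRIG1 were highest at 0 h in the first series and at 12 h in WT Rep. 2. At 48 h they stood at 0.45, 0.68, 0.46 and 0.58 of the highest value in WT Rep. 2. In the first series these fractions were 0.36, 0.35, 0.27 and 0.48. GPR37 at 24 h was 1.00 in the first series and 0.64 in WT Rep. 2, where it was highest at 48 h. Of the 26 genes, 14 were highest at the same time in both WT series and 23 moved in the same direction from 0 to 48 h. A ratio of a clone to WT Rep. 2 at 12 or 24 h carries this difference in timing between series, and its part was not tested.

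On the scale of log2(value + 0.05), the median ratio of the clones to WT Rep. 2 over the 26 genes was -0.07, 0.00, 0.25 and 0.33 at 0, 12, 24 and 48 h. Over all 497 genes it was -0.07, -0.02, 0.24 and 0.05. At 48 h 15 of the 26 genes were higher in both clones (57.7%) and 9 lower in both (34.6%), against 44.7% and 36.0% of the 497. The difference between the nearest genes and the whole table was not tested.

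Several genes with a peak were higher in both clones at 48 h. CCKBR was at 1.00 in WT Rep. 2, with 3.24 for dZF1 and 2.93 for dZF2. FLRT3 was at 1.00, 3.04 and 2.92, and GATA6 at 1.00, 2.87 and 2.85. These mean log2 ratios, 1.58, 1.53 and 1.47, were the highest of the 26, followed by SP5 (1.32) and MLLT6 (1.02). LHX1 was at 1.00, 1.90 and 1.34, NKD1 at 0.75, 1.29 and 1.25, and MIXL1 at 1.00, 1.22 and 1.5.

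Other genes with a peak were lower in both clones. SAMHD1 was at 0.68 in WT Rep. 2 at 48 h, with 0.25 for dZF1 and 0.23 for dZF2, the lowest mean log2 ratio (-1.33). HTR3A was at 0.46, 0.17 and 0.17, PRDM14 at 0.45, 0.20 and 0.18, FAM160A1 at 0.92, 0.43 and 0.46, and SLC47A1 at 1.00, 0.51 and 0.61. Several of these genes differed before Wnt3a was added. At 0 h PRDM14 was at 0.44 and 0.55 in the clones against 0.82 in WT Rep. 2, SAMHD1 at 0.56 and 0.61 against 0.91, and HTR3A at 0.58 and 0.61 against 0.93. NKD1 was at 1.01 and 0.69 against 0.50 at that time, and CCKBR at 0.29 and 0.35 against 0.14. AXIN2 and GPR37 were the genes on which the clones differed in sign at 48 h. The plot of clone ratios shows that both clones gave similar values for most genes.

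**Figure D5:**
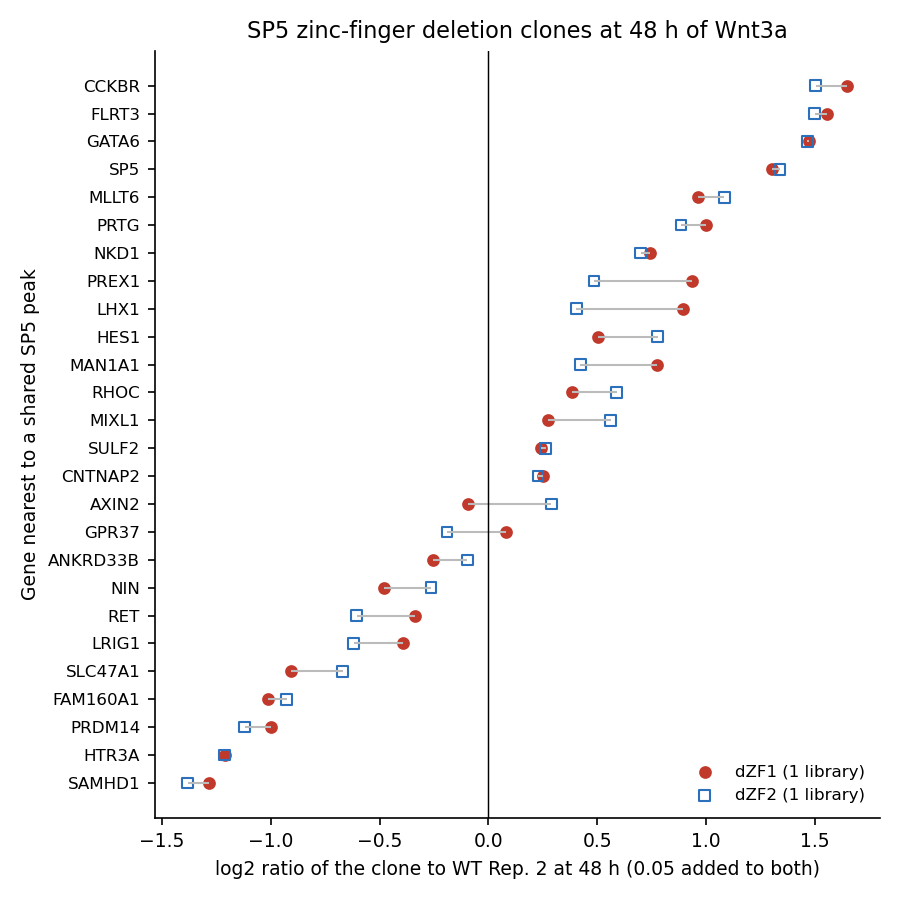
log2 ratio of dZF1 (filled circles) and dZF2 (open squares) to WT Rep. 2 at 48 h of Wnt3a, after adding 0.05 to each value, for the 26 genes nearest to a shared peak in the mutant table, 1 library each. CCKBR, FLRT3 and GATA6 are highest and SAMHD1 and HTR3A lowest, with AXIN2 and GPR37 on either side of 0.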

How the data were processed

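SP5 ChIP-Seq and RNA-Seq were measured in 18 samples labelled as H1 cells and grouped by their labels. The authors called peaks with MACS 1.4.2 (p-value cutoff 1e-05) on reads aligned to hg19 and deposited for each peak a tag count, a score, a fold enrichment ratio over the control and an FDR in percent. Bowtie 0.12.7 and SAMtools 0.1.12a stand in the submitters' processing notes, while the paper's methods name Bowtie 2. The authors made RPKM with TopHat and Cuffdiff, whose versions and annotation are not given in the sources used here. The authors deposited RPKM for the first WT series, and for WT Rep. 2 a fraction of each gene's highest RPKM there, with the clones as a ratio to that same highest value. The deposited tables that repeat the first series as fractions were not used. RNA depth is unknown.

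Peaks were matched by identical ends and joined to the nearest of 20163 protein-coding start sites (GENCODE 44 on GRCh37). Of 10975 table genes 10479 matched this annotation, 9519 under the same symbol and the rest by RefSeq synonyms. The pseudocount was 1 RPKM, or 0.05 for the clone table. The steps were tested on simulated data, with 8 of 8 checks passed. Versions were Python 3.11.15, pandas 2.3.3, scipy 1.17.1, pysam 0.24.0 and samtools 1.23.1.

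The members and gene lists were chosen with earlier results of these data known. Genes were named by rule: the nearest genes of the 10 peaks with most tags and of the 10 with the highest fold against each control, the 12 largest differences at 48 h in each direction, nearest genes in a gene list or named in the paper for SP5 binding, and the 5 highest and 5 lowest in the clones at 48 h. Others (HES1, VENTX, TBC1D30, FGF11, MDK, TLE6, DLX1 and DLX2 among them) were named after their values were seen. Some nearest genes, a member of the pluripotency list among them, are not reported here. No test was run, as each series has 1 library at each time and the WT series stand in separately scaled tables. The alternatives are given in the closing section.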

Additional observations from a re-analysis of the deposited data

Results flagged for a closer look

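Between 0 and 48 h, 2 of the 26 genes next to a shared peak in the mutant table had a change of one sign in WT Rep. 2 and of the other in both clones. AXIN2 changed by -0.18 on the scale of log2(value + 0.05) in WT Rep. 2, by 0.29 in dZF1 and by 0.68 in dZF2. The clones began lower, at 0.57 of the highest WT Rep. 2 value each against 0.87 in WT Rep. 2. For MLLT6 the WT Rep. 2 values were 0.78 at 0 h and 0.77 at 48 h, which differ by the last digit that the table gives, so no direction can be read from them. MLLT6, with a peak of 62 tags 1293 bases upstream, changed by -0.017 in WT Rep. 2, by 1.54 in dZF1 and by 1.61 in dZF2. In the first WT series both genes were higher at 48 h than at 0 h (AXIN2 15.5 and 22.0 RPKM, MLLT6 1.0 and 4.6 RPKM). With 1 library in each series and time these differences were not tested.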

How the results depend on the processing

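The number of shared peaks was 274 whether ends had to be identical or peaks had to overlap by 50% or by 1 base. Both lists were called on the same ChIP library, and shared peaks have the same summit and tag count in both. The overlap settings are therefore no independent check of this number. It was 146 among peaks with a score above the median of their own list, and 266 among summits whose 31-base words occurred once, a choice made after seeing the data. The share of summits within 2000 bases of a start was 33.9% with the starts of all transcripts and 33.6% within 5000 bases. GGGCGG was in 28.5% of windows of 50 bases to either side, 53.6% of 200 bases, 57.1% of the 35 peaks with a score above 100 against both controls, and 60.0% of the 25 with an FDR of at most 5% in both lists (added after seeing the data). GGGAGG was in 40.1%, 73.0%, 71.4% and 72.0% under the same settings.

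Counts of genes at least 2-fold different, higher and lower at each time, moved by more than 1.5 times in these cases. A pseudocount of 0.1 RPKM gave 4 lower at 12 h (2.47% of 162 genes, background 1.30%). A pseudocount of 5 RPKM gave 3 and 0 at 12 h, 4 and 0 at 24 h, and 13 and 2 at 48 h. The shares higher were 1.85%, 2.47% and 8.02%, against 0.31%, 1.08% and 2.22% of all genes. Those lower were 0%, 0% and 1.23%, against 0.073%, 0.33% and 0.89%. Of the 34 genes counted at 48 h, 34 stayed 2-fold with 0.1 RPKM and 15 with 5 RPKM. With a highest RPKM of at least 10 there were 3 and 1 at 12 h, 2 lower at 24 h and 16 higher at 48 h. Of these 117 genes that was 2.56%, 0.85%, 1.71% and 13.7%, against 0.90%, 0.32%, 0.83% and 3.97% of all such genes. Nearest genes within 50000 bases gave 1 lower at 12 h, 6 higher at 24 h and 15 higher at 48 h. Of these 111 genes that was 0.90%, 5.41% and 13.5%, against 0.72%, 2.62% and 4.86% of all listed genes. The starts of all transcripts gave 1 lower of 165 genes at 12 h, or 0.61% against 0.72%. Peaks with a score above 100 against both controls gave 2 and 0, 3 and 0, and 7 and 1 at 12, 24 and 48 h among 22 genes. The shares higher were 9.09%, 13.6% and 31.8%, against 1.22%, 2.62% and 4.86% of all listed genes. Those lower were 0%, 0% and 4.55%, against 0.72%, 1.35% and 2.95%. Peaks with an FDR of at most 5% in both lists gave 2 and 0, 2 and 0, and 6 and 1 among 17. Higher were 11.8%, 11.8% and 35.3%, and lower 0%, 0% and 5.88%, against the same backgrounds. Smaller sets give smaller counts by construction.

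With 1 clone left out, the median log2 ratio to WT Rep. 2 ranged from -0.049 to -0.041 at 0 h, -0.02 to 0.04 at 12 h, 0.11 to 0.39 at 24 h and 0.26 to 0.35 at 48 h. With 0.2 in place of 0.05 added it was -0.063 at 0 h. The value at 24 h was 0.11 without dZF2 and 0.39 without dZF1. Among the clone medians only that at 12 h changed sign, being 0.04 without dZF1. The genes counted at 48 h kept their sign with either other pseudocount. The shares of lower genes at 12 and 24 h, above the background in the main setting, were below it under some settings given above. No paired analysis was possible because no result comes from a test and the WT series that share the time points stand in separately scaled tables. Of the 26 genes in both tables, 23 had the same direction from 0 to 48 h in both WT series. Few tags per peak, 1 ChIP library and unknown RNA depth limit all values.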

Other observations

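Shared peaks also lay by genes of other developmental pathways that are not listed in the RPKM table, named here after their values were seen. NKX2-8 had 66 tags 39 bases inside its start, with folds of 13.9 and 8.41. NEUROG1 had 52 tags 238 bases upstream, and SOX10 had 52 tags in an exon 3205 bases inside. WNT8B, a WNT ligand that the WNT list used above does not hold, had 58 tags 22968 bases past its start, and FOXJ1, a factor of ciliated cells, had 70 tags 8435 bases past its start. DLX6, DLX2 and DLX1, homeobox genes of paired clusters, were nearest to peaks of 44, 39 and 15 tags.

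Genes for transcriptional corepressors were also among the nearest genes. CTBP2 had 68 tags in an intron and ran at 48.7, 54.1, 48.7 and 46.7 RPKM over the time course. TBL1XR1, a subunit of nuclear corepressor complexes, had 58 tags 56450 bases upstream and ran at 35.3, 42.7, 48.8 and 56.7 RPKM. TLE6 had peaks of 53 and 47 tags and TLE2 a peak of 23 tags 219 bases upstream, and neither is listed in the RPKM table.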
